A study of Rattus norvegicus with 10 samples.

Results

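The 6 genes described here are the 5 casein genes of the rat, Csn1s1, Csn1s2a, Csn1s2b, Csn2 and Csn3, and RGD1310384, which lies among them on chromosome 14. They were found by gene name among the probes of a whole-genome microarray. Each had 1 probe, so the set is 6 of 41012 non-control probes, or 6 of 35469 gene names. Milk came from dams of the inbred strain F344/N on d 2, d 9 and d 16 of lactation, with RNA taken from whey, the part of milk left after fat, cells and casein curd are removed. Each whey group held 3 arrays, 1 for each of the same 3 dams, which makes 9 whey arrays. A serum pool, in which RNA of the 3 dams from d 21 was mixed, was put on 1 array and has no replicate. No treatment separated the groups. All dams had been given oxytocin and light anaesthesia for milking, and each array received 100 ng of total RNA. The values therefore describe shares of the RNA and not amounts per volume of whey. The whey had been filtered, and the paper found little or no ribosomal RNA in it. The paper proposes that its transcripts come from milk-derived exosomes. More RNA from each secreting cell, more such cells, and a change in release or breakdown of RNA cannot be told apart.

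Caseins are the main proteins of milk. The alpha-s1, alpha-s2 and beta caseins are bound to calcium phosphate through clusters of phosphorylated serines, and kappa casein, encoded by Csn3, covers the surface of the resulting micelle and keeps it in suspension. Their genes form a cluster that is transcribed in the secretory epithelium of the mammary gland under prolactin, which acts through Jak2 and Stat5, together with glucocorticoid, C/EBP and nuclear factor I proteins. Rats carry a pair of alpha-s2-like genes, Csn1s2a and Csn1s2b.

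RGD1310384 and Csn1s2b were chosen by their change of signal between days on these same arrays. Their values are given as a description without a test. Csn1s1, Csn1s2a, Csn2 and Csn3 entered through the family name, and for them the test over all probes is given. The family itself was taken up with earlier results of these arrays known.

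The position column of the array files uses the rn4 build. On it the probes ran along chromosome 14 in the order Csn3, RGD1310384, Csn1s2b, Csn1s2a, Csn2 and Csn1s1, and the stretch from the start of the Csn3 probe to the end of the Csn1s1 probe was 194.4 kb. The RGD1310384 probe, at 21755881 to 21755940, lay 80.9 kb beyond Csn3 and 26.3 kb before Csn1s2b. Probes of Csn1s2b and Csn1s2a were 19.5 kb apart, and that of Csn2 was 16.0 kb from Csn1s1. The Csn1s2b probe was placed over 3533 bases, from 21782246 to 21785778, although it has 60 bases, so it is split over more than 1 exon. The array files describe RGD1310384 as a predicted gene, and by its gene ID the RefSeq annotation of the GRCr8 assembly lists it as Prr27, a proline-rich protein gene. That annotation has the same order of the 6 genes. It places Fdcsp, Odam, a non-coding RNA and a pseudogene between Csn3 and Prr27, and Stath between Csn1s2a and Csn2. Csn2 is read from the plus strand and the other 5 genes from the minus strand.

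The probe sequences show what each signal could pick up. No 2 of the 6 member probes shared more than 8 consecutive bases in either orientation, over 15 pairs. The probes of the alpha-s2 pair shared a run of 6 bases, in capitals here. The RGD1310384 probe has a partner on the array, a probe for the expressed sequence AI145562 at 21755901 to 21755945, which reads the opposite strand of the same stretch. Capitals in those 2 probes mark 40 bases of the one that are the reverse complement of 40 bases of the other.
Csn1s2a probe: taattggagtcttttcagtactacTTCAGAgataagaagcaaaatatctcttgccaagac
Csn1s2b probe: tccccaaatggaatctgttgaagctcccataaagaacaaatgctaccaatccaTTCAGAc
RGD1310384 probe: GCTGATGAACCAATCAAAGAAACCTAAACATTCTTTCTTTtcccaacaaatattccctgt
AI145562 probe: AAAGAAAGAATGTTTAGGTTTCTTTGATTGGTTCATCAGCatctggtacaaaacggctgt

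The stretches before the transcription starts are shown because neighbouring genes of this cluster moved apart over the days. They are 150 bases of RefSeq sequence on GRCr8, each ending at the base before the start, and all 6 members were matched by gene ID. Capitals mark matches to TTCNNNGAA (the Stat palindrome), to the same palindrome with 4 in place of 3 bases between TTC and GAA, or to TTTAAA, searched on both strands of 250 bases.
Csn1s1, chr14:20638850-20638999, minus strand: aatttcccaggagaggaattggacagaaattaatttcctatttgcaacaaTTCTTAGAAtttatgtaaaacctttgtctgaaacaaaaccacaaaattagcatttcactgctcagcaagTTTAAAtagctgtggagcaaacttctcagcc
Csn1s2a, chr14:20574472-20574621, minus strand: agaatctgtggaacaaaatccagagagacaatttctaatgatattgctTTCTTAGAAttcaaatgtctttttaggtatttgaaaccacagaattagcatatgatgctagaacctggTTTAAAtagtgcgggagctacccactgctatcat
Csn1s2b, chr14:20545619-20545768, minus strand: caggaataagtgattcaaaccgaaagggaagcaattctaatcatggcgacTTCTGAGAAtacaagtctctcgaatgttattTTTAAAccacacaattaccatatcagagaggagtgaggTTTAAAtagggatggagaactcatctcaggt
Csn2, chr14:20601674-20601823, plus strand: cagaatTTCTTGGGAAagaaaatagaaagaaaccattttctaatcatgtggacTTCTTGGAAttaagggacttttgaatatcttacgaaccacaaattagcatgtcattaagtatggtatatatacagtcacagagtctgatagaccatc
RGD1310384 (Prr27), chr14:20527862-20528011, minus strand: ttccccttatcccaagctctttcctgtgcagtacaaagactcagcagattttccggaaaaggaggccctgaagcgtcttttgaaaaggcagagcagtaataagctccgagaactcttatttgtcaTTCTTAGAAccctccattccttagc
Csn3, chr14:20439831-20439980, minus strand: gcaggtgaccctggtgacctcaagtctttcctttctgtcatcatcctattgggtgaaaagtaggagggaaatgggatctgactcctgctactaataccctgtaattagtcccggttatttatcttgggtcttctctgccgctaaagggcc

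A match to TTCNNNGAA was found upstream of 5 of the 6 genes, against 7.52% of 27457 promoters of the same length. In the 4 calcium-binding caseins it sat at nearly the same place, from base -100 to base -92 in Csn1s1 and Csn1s2b, from -102 to -94 in Csn1s2a and from -97 to -89 in Csn2. In RGD1310384 it lay at -25 to -17, and none was found in Csn3. Csn1s2a and Csn1s2b, whose signals differed in their course, both held it. Whether the match has a part in either course was not tested. The upstream stretches of the caseins shared runs of up to 11 bases, so their matches may not be independent of each other. TTTAAA was found in Csn1s1, Csn1s2a and Csn1s2b, within -34 to -26 in each, with another match at -69 to -64 in Csn1s2b, and in 12.2% of all promoters. The palindrome with the longer spacer was found in Csn2 from -144 to -135 and in 6.29% of all promoters. The members held none of the other 3 motifs searched, TATAAA, TTGCGCAA and the nuclear factor I palindrome of TTGGC and GCCAA 5 bases apart, which were found in 13.1%, 0.164% and 0.0401% of all promoters. A match describes the letters of this window and not a bound site.

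The arrays were spread over 3 slides. Dams 1 and 2 had their d 2 whey on slide 1. On slide 2 the d 2 whey of dam 3 sat beside the d 9 whey of every dam. Slide 3 carried the d 16 whey and the serum pool and was scanned on another day, so slide, scan and day of lactation cannot be told apart for d 16. The 75th percentile of the processed signal, which is the background-subtracted brightness of a spot, ranged from 12.5 to 83.2 over the whey arrays and was 4.11 on the serum array. Spike-in probes varied by 1.60-fold over all 10 arrays. The d 9 array of dam 3 stood apart with the 75th percentile of 83.2, and results that rest on it are also given without it. Of the markers of mammary epithelium, all 9 with a probe were well above background on every whey array. The summed level of that list was 18.2 to 18.3 on d 2, 18.3 to 18.8 on d 9 and 19.0 to 19.1 on d 16, on the log2 scale after quantile normalization. Most of it came from the milk protein genes Wap (means of 17.77, 18.16 and 18.50) and Lalba (16.31, 16.34 and 17.38). The keratins of the list were highest on d 2, with means of 9.34, 8.03 and 8.18 for Krt8, 13.24, 12.34 and 12.52 for Krt18, and 10.81, 8.07 and 8.52 for Krt19. Among macrophage markers 1 of 4 was well above background on all whey arrays, with sums of 7.86 to 8.51 on d 2, 6.48 to 7.41 on d 9 and 6.64 to 7.36 on d 16, mostly from Cd14, with means of 8.11, 6.57 and 6.23. Cd68 had means of 3.14, 4.44 and 5.46 and was well above background on all d 9 and d 16 arrays and no d 2 array, and Csf1r and Cd163 were not on any. Lymphocyte sums were 4.86 to 5.65, 5.33 to 5.80 and 6.05 to 6.74, with 1 of 5 markers, Cd3d, well above background throughout and the other 4 on no whey array. Myoepithelial sums were 7.61 to 8.17, 6.43 to 8.32 and 8.38 to 8.65, with 3 of 4 markers well above background throughout. Neutrophil sums ran from 5.47 to 5.84, 4.18 to 7.55 and 5.26 to 8.68 on the same days, with 0 of 5 markers well above background throughout. Red cell sums were 5.67 to 6.29 on d 2, 6.48 to 7.11 on d 9 and 7.51 to 8.20 on d 16, with Hbb and Alas2 not well above background on any whey array and the third probe, LOC287167, above it on all. Whether these lists have a part in the casein values was not tested.

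Csn1s2b, the second alpha-s2-like casein, had the widest range of the set. Its processed signal was 311, 566 and 1030 on d 2 for dams 1, 2 and 3, then 11055, 26436 and 34712 on d 9, and reached 52800, 85180 and 94539 by d 16. The days did not overlap, and every dam rose at each step. The spot moved from ranks 1545 to 1902 of 43379 on d 2 to ranks 191 to 267 on d 9 and 31 to 48 on d 16. After quantile normalization, which gives every array the same distribution of values, the log2 level was 9.40 ± 0.23 (SD, n = 3) on d 2, 13.52 ± 0.27 (SD, n = 3) on d 9 and 15.93 ± 0.26 (SD, n = 3) on d 16. The log2 change was 4.13 from d 2 to d 9 (17.5-fold) and 6.53 from d 2 to d 16 (92.6-fold), and the step from d 9 to d 16 was 2.41. On slide 2 alone, which holds d 2 whey of dam 3 beside all d 9 whey, the first of these changes was 3.87.

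RGD1310384 ran the other way. Its processed signal was 2516, 3324 and 3445 in d 2 whey of dams 1, 2 and 3. It was 161, 484 and 1069 in d 9 whey and 108, 431 and 164 in d 16 whey. Every d 2 value lay above every later value, while d 9 and d 16 overlapped. Within d 9 the unscaled signals of the dams spread over 6.63-fold, against 1.37-fold within d 2. The 75th percentile of the arrays ran from 21.2 to 83.2 within d 9 and from 12.5 to 28 within d 2. After normalization the spread on d 9 was no wider than on d 2. The normalized log2 level was 11.84 ± 0.41 (SD, n = 3), 7.82 ± 0.33 (SD, n = 3) and 7.20 ± 0.62 (SD, n = 3) on the 3 days, so the level was 16.15-fold lower on d 9 and 24.9-fold lower on d 16 than on d 2. Within slide 2 the log2 change from d 2 to d 9 was -3.59. The probe for the opposite strand, AI145562, was not well above background on any of the 10 arrays. Its processed signal was 10 to 10.9 on d 2, 1.92 to 5.63 on d 9 and 2.15 to 2.47 on d 16.

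**Figure D1:**
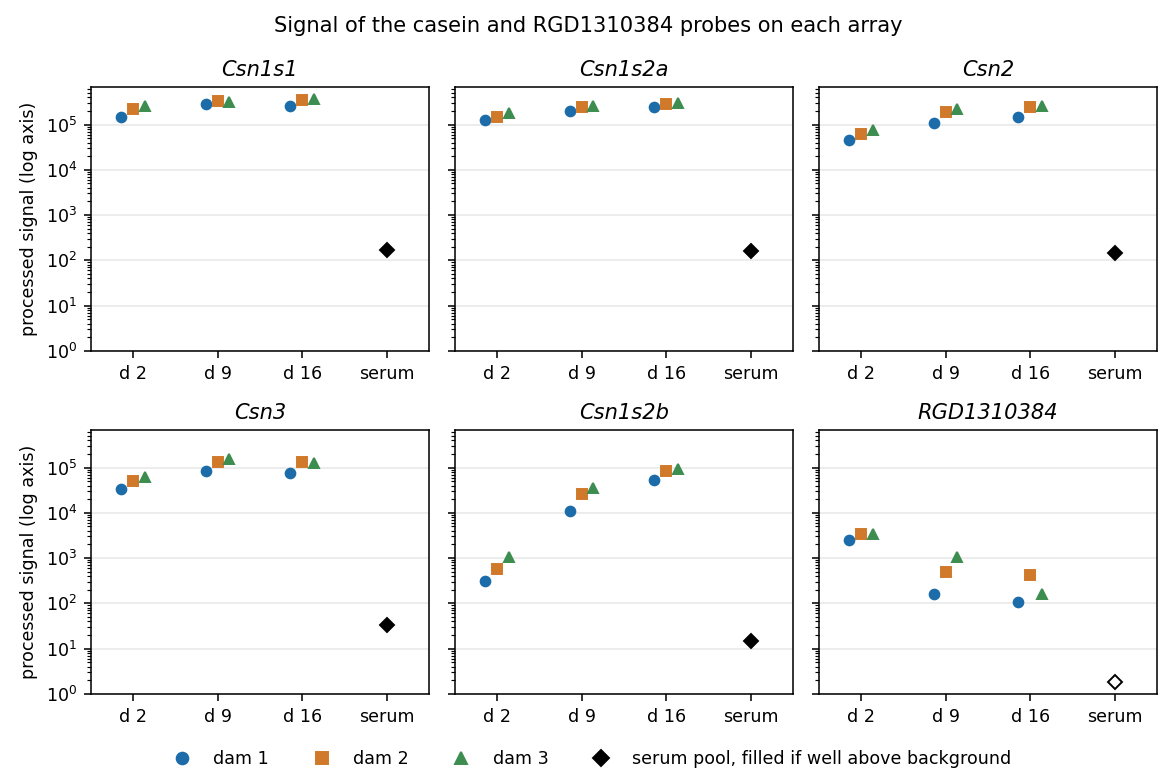
Processed signal (log axis, arbitrary units) of the 6 probes on each array, by day of whey and in the serum pool; each point is 1 array and the symbol gives the dam. Csn1s2b climbed from 311 to 1030 on d 2 to 52800 to 94539 on d 16, RGD1310384 was highest on d 2, and the open diamond marks its serum value, which was not well above background.

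Across the 9 whey arrays the normalized levels of Csn1s2b and RGD1310384 correlated at r = -0.96, a description over points that share days and slides. The genes whose levels most resembled each were sought among 2228 probes with a gene name that were well above background on at least 3 whey arrays and ranged over at least 2 log2 units. Nearest to Csn1s2b were Hopx, a homeodomain protein without DNA binding (r = 0.996), Pllp, the membrane proteolipid plasmolipin (r = 0.992), RGD1309708 (r = 0.991), LOC100302372 (r = 0.990) and Gckr, the glucokinase regulator (r = 0.987). Hopx was well above background on 6 of the 9 arrays and rose from a mean log2 level of 3.12 on d 2 to 7.08 on d 16. Gckr was well above background on 5 arrays, with a d 2 mean of 0.92. Nearest to RGD1310384 were Spdef, an ETS transcription factor of secretory epithelia (r = 0.987), Dusp6, a phosphatase of ERK kinases (r = 0.985), the DNA ligase Lig1 (r = 0.984), the receptor phosphatase Ptprt (r = 0.983) and Fam155a (r = 0.982). Spdef went from a mean log2 level of 7.58 on d 2 to 3.88 on d 9 and 3.37 on d 16. Ptprt and Fam155a were each well above background on 3 of the 9 arrays. Their means on the 3 days were 5.21, 1.11 and 0.92 for Ptprt and 6.81, 1.31 and 1.10 for Fam155a, so their r rests largely on the step after d 2. Such likeness was common, since 190 of the probes reached r above 0.9 with Csn1s2b and 119 with RGD1310384.

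Csn2, the beta casein gene, was the tested casein with the largest change. Its processed signal was 45785, 62071 and 76737 on d 2, 105893, 186764 and 225176 on d 9, and 148694, 242566 and 252652 on d 16, for dams 1, 2 and 3. All d 2 values lay below all later values, and d 9 and d 16 overlapped. The normalized log2 level rose from 16.24 ± 0.13 (SD, n = 3) on d 2 to 17.28 ± 0.16 (SD, n = 3) on d 16, by 1.04 ± 0.18 log2 units (SE; limma adjusted p = 0.00581, 3 of 3 dams higher). On d 9 it was 16.83 ± 0.32 (SD, n = 3), which did not pass the threshold against d 2 (log2 change 0.59 ± 0.18 SE, limma adjusted p = 0.0610), nor did d 16 against d 9 (0.45 ± 0.18 SE, limma adjusted p = 0.238). Without d 9 whey of dam 3 the change from d 2 to d 9 was 0.77 with an adjusted p of 0.024. Within slide 2 it was 0.73, with an adjusted p of 0.194 in the fit with slide as a block. The d 16 call was lost under spike-in scaling (log2 change 1.65, limma adjusted p = 0.184) or with no scaling at all (1.80, limma adjusted p = 0.144).

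Csn3, which encodes kappa casein, gave 33990, 49395 and 62588 on d 2, 82097, 132766 and 153465 on d 9, and 75591, 135819 and 123870 on d 16. The unscaled signals of d 2 lay below those of both later days. After normalization the log2 level was 15.78 ± 0.02 (SD, n = 3), 16.17 ± 0.42 (SD, n = 3) and 16.42 ± 0.13 (SD, n = 3). The rise from d 2 to d 16 was 0.64 ± 0.20 (SE) and lay just inside the cutoff of 0.05 (limma adjusted p = 0.0498). With the dams as a block, which pairs the arrays of 1 animal, the adjusted p was 0.0712, and the call was lost in 16 of 24 alternatives. From d 2 to d 9 the change was 0.38 ± 0.20 (SE; limma adjusted p = 0.222), and without d 9 whey of dam 3 it was 0.62 with an adjusted p of 0.0320.

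The 2 brightest caseins showed no called change. Csn1s1, the alpha-s1 casein gene, had processed signals of 144320, 215437 and 256445 on d 2, 282151, 324596 and 321148 on d 9, and 260251, 346657 and 361986 on d 16. Csn1s2a, the other alpha-s2 casein gene, had 129273, 148979 and 179458 on d 2, 198796, 249635 and 251554 on d 9, and 241504, 289144 and 291911 on d 16. In both genes the unscaled signals of d 2 lay below those of d 9 and d 16. The highest probe signal of any whey array ranged from 367309 to 482854, and no member spot was saturated. After quantile normalization the log2 change of Csn1s1 was -0.39 ± 0.30 (SE) from d 2 to d 9 and 0.11 ± 0.30 (SE) from d 2 to d 16 (limma adjusted p = 0.393 and 0.820). That of Csn1s2a was -0.23 ± 0.24 (SE) and 0.19 ± 0.24 (SE), with limma adjusted p of 0.536 and 0.586. For d 16, a rise of 0.64 as called in Csn3 lay within 2 SE of both estimates.

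Rank ties shaped the normalized values of these brightest probes. Csn1s1 was the spot of rank 5 on 7 of the 9 whey arrays, so quantile normalization gave it the same value, 18.04, on those 7 arrays and an SD of 0 on d 2. Its other ranks were 16 in d 9 whey of dam 3 and 4 in d 16 whey of dam 3. Csn1s2a took 4 different values on 9 arrays, with rank 7 on 5 of them and rank 22 in d 9 whey of dam 3. Csn2 stood at ranks 29 to 33 on d 2, 10 to 27 on d 9 and 8 to 10 on d 16, and Csn3 at 44 to 46, 26 to 48 and 26 to 30. In d 9 whey of dam 3 all 4 of these caseins had their worst rank within d 9, while their signals there were from 153465 to 321148. Without that array the log2 change from d 2 to d 9 was 0 in Csn1s1 and 0.07 in Csn1s2a.

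**Figure D2:**
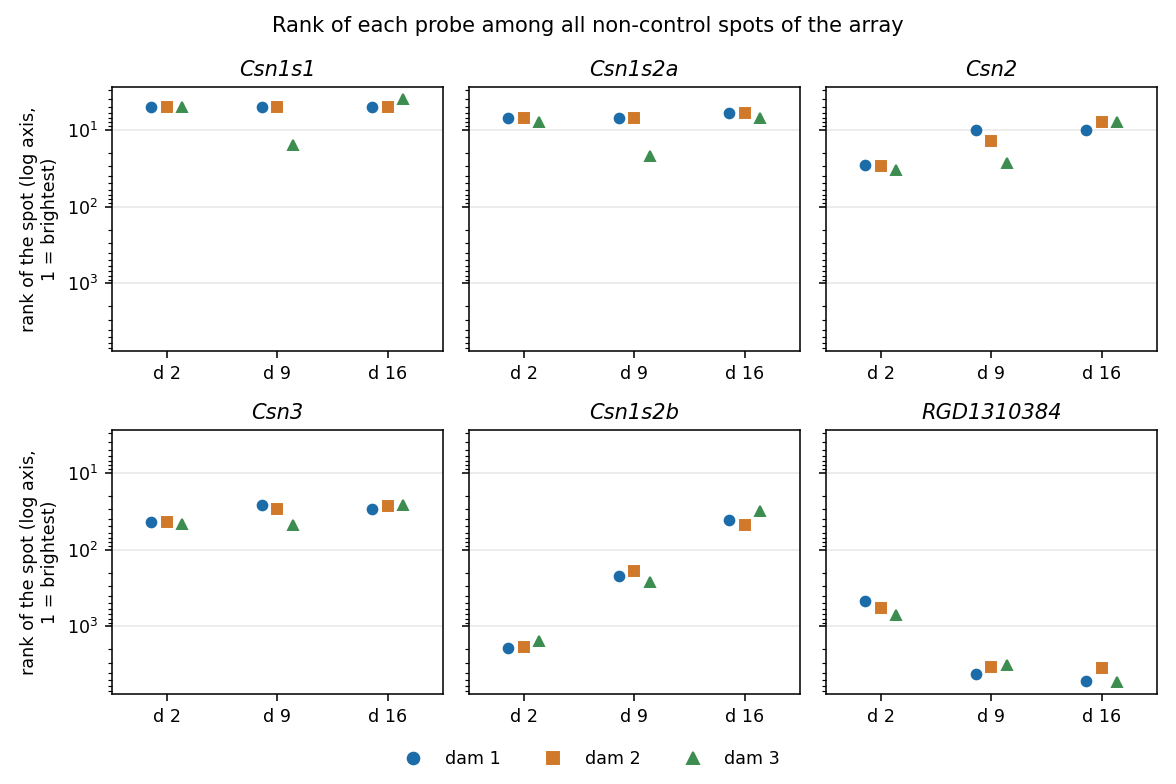
Rank of each probe among the 43379 non-control spots of its array (log axis, 1 is the brightest) for the 9 whey arrays, 1 point an array, with the dam as the symbol. Csn1s1 sat at rank 5 on 7 arrays, and the triangle of d 9 whey (dam 3) fell to rank 16 for Csn1s1 and 22 for Csn1s2a.

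Directions of the small changes depended on the scaling. The comparisons of d 9 and d 16 share their d 2 arrays. Scaled to the spike-in probes, the median of all detected probes shifted by 1.54 log2 units from d 2 to d 9 and by 0.55 from d 2 to d 16. The changes of Csn1s1 and Csn1s2a from d 2 to d 9, negative after quantile and 75th percentile scaling, were then 0.93 and 0.92. Relative to the median of all probes they were -0.61 and -0.62 on that scale. For Csn2 the change from d 2 to d 16 relative to that median was 1.10 and for Csn3 0.50. Csn1s2b kept a rise of 6.35 and RGD1310384 a fall with a log2 change of -4.66 relative to it.

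**Figure D3:**
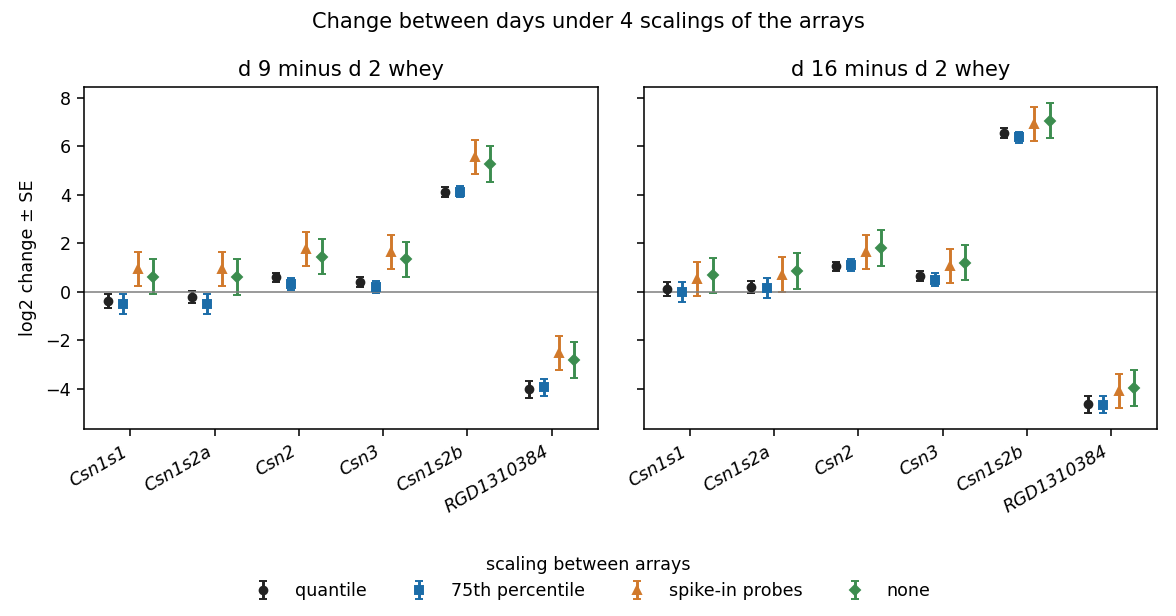
Log2 change ± SE from d 2 to d 9 (left) and to d 16 (right) of the 6 probes under 4 scalings of the 9 whey arrays. Csn1s1 and Csn1s2a on d 9 lay below 0 after quantile and 75th percentile scaling and above 0 with spike-in scaling or none, while Csn1s2b stayed at 3.87 or more and RGD1310384 at -2.51 or less under every alternative run.

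Across the set, 2 of 6 members were called between d 2 and d 9, when 17.6% of all 16849 detected probes were. Between d 2 and d 16 it was 4 of 6, against 28.5%, and between d 9 and d 16 it was Csn1s2b alone, against 1.42%. Calls include the 2 genes chosen for their change, so these counts are given without a reading. There was no overlap of normalized values in 3 members between d 2 and d 9, 4 between d 2 and d 16 and 1 between d 9 and d 16. Among all detected probes the corresponding shares were 38.8%, 48.2% and 29.3%. The median log2 change of the 6 members was 0.08, 0.42 and 0.44 in the 3 comparisons, and that of all detected probes was 0.11, 0.04 and -0.06.

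The ratio of a pair of probes on the same array does not depend on a scaling that multiplies each array by 1 factor, which quantile normalization is not. It shows whether casein signals changed unequally, which is a statement about RNA only if all bright spots respond alike to RNA. Within d 9 the signals spread over 1.15-fold in Csn1s1, 1.27-fold in Csn1s2a, 1.87-fold in Csn3 and 2.13-fold in Csn2. The 75th percentile ran from 21.2 to 83.2 on those arrays. Within d 2 the spreads were 1.78, 1.39, 1.84 and 1.68-fold. Whether the brightest spots respond less than others was not tested. Over the 6 pairs of Csn1s1, Csn1s2a, Csn2 and Csn3, the 3 days were compared by an exact permutation test of the F statistic. It ran over 1680 assignments of arrays to days, adjusted over the 6 pairs, with 0.00357 as the smallest possible p. Its p covers all 3 days together and not the change from d 2 to d 16 alone. The ratio of Csn3 to Csn2 passed. Its log2 value was -0.43, -0.33 and -0.29 on d 2, -0.37, -0.49 and -0.55 on d 9, and -0.98, -0.84 and -1.03 on d 16 for dams 1, 2 and 3 (exact permutation p = 0.00714, adjusted p = 0.0429). Every d 16 value lay below every earlier one, a change of -0.60 from d 2 to d 16, which is less Csn3 signal for each unit of Csn2 signal. Permuting days only within each dam, where the smallest possible p is 0.0278, gave an adjusted p of 0.0667 for this pair and no pair past the threshold.

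The other 5 pairs did not pass. The change in the log2 ratio of Csn2 to Csn1s1 against d 2 was 0.82 on d 9 and 1.12 on d 16, without overlap of d 2 and d 16, and its adjusted p equalled the threshold (exact permutation p = 0.025, adjusted p = 0.05). The ratio of Csn1s2a to Csn2 gave the same p and adjusted p, with a log2 change of -0.94 from d 2 to d 16. Over the same span the change was 0.52 for Csn3 to Csn1s1 (exact permutation, adjusted p = 0.0696) and 0.35 for Csn3 to Csn1s2a (exact permutation, adjusted p = 0.0814). The smallest change was that of Csn1s2a to Csn1s1, the 2 brightest caseins, at 0.18 (exact permutation, adjusted p = 0.30). The number of pairs past the threshold ran from 0 to 5 when each array was left out in turn, with 5 without d 9 whey of dam 1, 4 without d 16 whey of dam 1 and 3 without d 9 whey of dam 3. It was 0 without d 2 whey of dam 2, d 2 whey of dam 3 or d 9 whey of dam 2.

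Between the alpha-s2 pair the log2 ratio of Csn1s2b to Csn1s2a rose by 4.64 from d 2 to d 9 and by 6.20 to d 16. The ratio of RGD1310384 to Csn1s2b, the probe next to it, had a log2 change of -8.07 from d 2 to d 9 and of -11.01 from d 2 to d 16. In the first pair each dam rose at each step, and in the second each dam fell. Both are descriptions without a test.

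**Figure D4:**
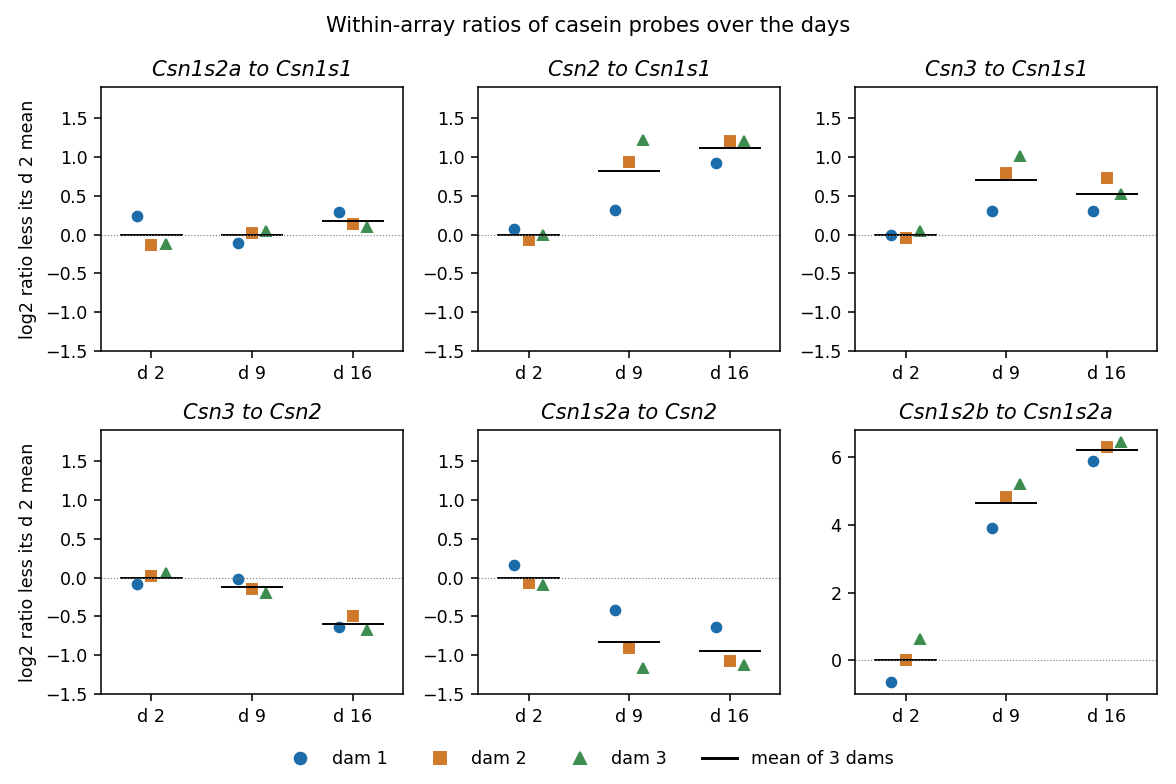
Within-array log2 ratios of 6 pairs of casein probes, less the mean of d 2, for the 3 dams (symbols) on d 2, d 9 and d 16, with a line at the mean of each day. Csn3 to Csn2 was lower on d 16 in all 3 dams, the d 16 mean of Csn2 to Csn1s1 lies 1.12 above d 2 without passing the test, and the panel of Csn1s2b to Csn1s2a has its own wider axis, on which the d 16 mean lies 6.20 above d 2.

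In the serum pool the caseins were dim but all 5 were above background. The processed signals were 166 for Csn1s1, 161 for Csn1s2a, 148 for Csn2, 32.8 for Csn3 and 14.8 for Csn1s2b, all well above background, and 1.82 for RGD1310384, which was not. With 1 serum array there is no test. After quantile normalization the mean of the 9 whey arrays exceeded serum by 7.34 log2 units in Csn1s1, 6.93 in Csn1s2a, 6.31 in Csn2 and 7.69 in Csn3. For Csn1s2b the difference was 2.30 for d 2, 6.43 for d 9 and 8.83 for d 16. On this quantile scale RGD1310384 was at least 205-fold higher in whey over all days and at least 1510-fold higher in d 2 whey. The dimmest probe well above background was taken as its serum level. Over the scalings run, its whey mean lay 3.14 to 8.46 log2 units above its own serum signal, so the bounds belong to the quantile scale. For Csn1s2b that difference ran from 5.11 to 9.36. Quantile normalization raises the values of a dim array. With spike-in scaling the differences were 10.6 in Csn1s1, 10.3 in Csn1s2a, 9.71 in Csn2 and 11.3 in Csn3. After quantile normalization the red cell markers summed to 18.2 in serum and to at most 8.20 in whey. Those of mammary epithelium summed to 11.9 in serum and to at least 18.2 in whey. Whether the make-up of the serum RNA has a part in the differences was not tested. The 5 casein probes carried 2.40 to 6.19% of the summed probe signal on whey arrays and 0.0151% on the serum array, a share of fluorescence and not of RNA molecules.

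Of 20 genes known to regulate casein transcription, 19 had a probe and 15 were detected in whey. This list was drawn up with earlier results of these arrays known. From d 2 to d 9 whey 1 was higher (11.3% of all probes were) and 1 lower (6.36%), and from d 2 to d 16 2 were higher (16.0%) and 4 lower (12.4%). None was called between d 9 and d 16, where 0.564% of all probes were higher and 0.855% lower. In that comparison 2 passed at an unadjusted p under 0.05 in limma and 1 in a Tukey-Kramer test. Of all probes, 2050 of 16845 passed that unadjusted Tukey-Kramer test, and the number for unadjusted limma was not counted. The median log2 change of the 15 was 0.10, 0.16 and 0.01. With spike-in scaling 8 were higher and 0 lower on d 9, when 44.8% of all probes were higher, and none was called on d 16. The 4 that fell by d 16 were Stat5a (log2 change -0.86 ± 0.24 SE, limma adjusted p = 0.0337) and Stat5b (-0.66 ± 0.15 SE, limma adjusted p = 0.0152), which carry the prolactin signal, Rbpj (-0.79 ± 0.15 SE, limma adjusted p = 0.00697), the DNA-binding partner of Notch, and the histone methyltransferase Ezh2 (-0.70 ± 0.16 SE, limma adjusted p = 0.0143). Stat5a and Rbpj kept a negative change under all 5 scalings run (quantile, the 75th percentile over all probes or over probes well above background in all whey, spike-in and none), whereas Stat5b and Ezh2 each turned positive under 1 of them. The calls of all 4 were made under 3 of the 5. With spike-in scaling Stat5a was at -0.41 (limma adjusted p = 0.814) and Rbpj at -0.21 (limma adjusted p = 0.911), and with none they were at -0.27 and -0.07. Jak2, the kinase of the prolactin receptor, rose by 0.73 ± 0.22 (SE; limma adjusted p = 0.0405). Cish, an inhibitor induced by Stat5, was not well above background on any d 2 array. After quantile normalization Cish was at least 2.48-fold higher on d 9 (limma adjusted p = 0.0105) and at least 2.32-fold higher on d 16 (limma adjusted p = 0.00804). It passed the filter on dim probes through the later days alone, so its call is no separate support for a difference. The receptor itself, Prlr, and Elf5, a transcription factor of milk-secreting cells, were named after their values were seen. Their log2 changes from d 2 to d 16 were 0.16 ± 0.23 (SE) and -0.28 ± 0.21 (SE), with limma adjusted p of 0.619 and 0.340.

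The second list held 21 genes, of which 18 were detected. Its genes cover casein phosphorylation, glycosylation and folding and the transport of calcium and phosphate, and include the proteases Ctsd and Ctse. This list, too, was drawn up with earlier results of these arrays known, so its counts are given without a reading. From d 2 to d 9 8 of the genes were higher and 1 lower, and from d 2 to d 16 10 were higher and 0 lower. Over all probes 11.3% were higher and 6.36% lower on d 9, and 16.0% and 12.4% on d 16. Between d 9 and d 16 Galnt2 alone was called, higher by 1.15 ± 0.20 (SE; limma adjusted p = 0.0416). Over all probes 0.564% were higher and 0.855% lower in that comparison. With 75th percentile scaling 2 of the list were called higher there, and with spike-in scaling or none 0 were. Unadjusted, 4 passed in limma, for which all probes were not counted. In the unadjusted Tukey-Kramer test 3 passed, as did 2050 of all 16845 probes. The median log2 change was 0.51 to d 9 and 0.68 to d 16, against 0.11 and 0.04 over all detected probes. With spike-in scaling 11 were higher on d 9, when 44.8% of all probes were, and 2 on d 16, when 3.31% were. Slc34a2, a phosphate transporter of the apical membrane, changed most (1.86 ± 0.34 SE on d 9, limma adjusted p = 0.0118, and 1.93 ± 0.34 SE on d 16, limma adjusted p = 0.00620). Atp2b2, the calcium pump that exports calcium into milk, rose by 1.41 ± 0.17 (SE; limma adjusted p = 0.00334) and 1.72 ± 0.17 (SE; limma adjusted p = 0.000644). These 2 were called under all 5 scalings in both comparisons.

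C1galt1, which adds galactose to the initial sugar of O-linked chains such as those on kappa casein, rose by 1.24 on d 9 and 1.31 on d 16 (limma adjusted p = 0.00386 and 0.00131). Its chaperone C1galt1c1 rose by 1.14 on d 16 (limma adjusted p = 0.0142), and Galnt2, which attaches the initial sugar, rose by 1.46 on d 16 (limma adjusted p = 0.00217). The d 16 calls of these 3 genes were made under 3 of the 5 scalings and not under spike-in scaling or none. St3gal1, a sialyltransferase of the same list, was not called (log2 changes 0.52 and -0.20, limma adjusted p = 0.617 and 0.850), and St6galnac1 was not detected. Both were named after their values were seen. Ctsd, a lysosomal aspartic protease, was the gene that fell on d 9, at -1.46 ± 0.26 log2 units (SE; limma adjusted p = 0.0110), and was at -0.06 on d 16. Under 1 of the 5 scalings its d 9 change was positive. Fam20c, the kinase that phosphorylates caseins in the Golgi, was named after its values were seen, and its log2 changes were 0.09 ± 0.15 (SE) and -0.11 ± 0.15 (SE), with limma adjusted p of 0.688 and 0.597.

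**Figure D5:**
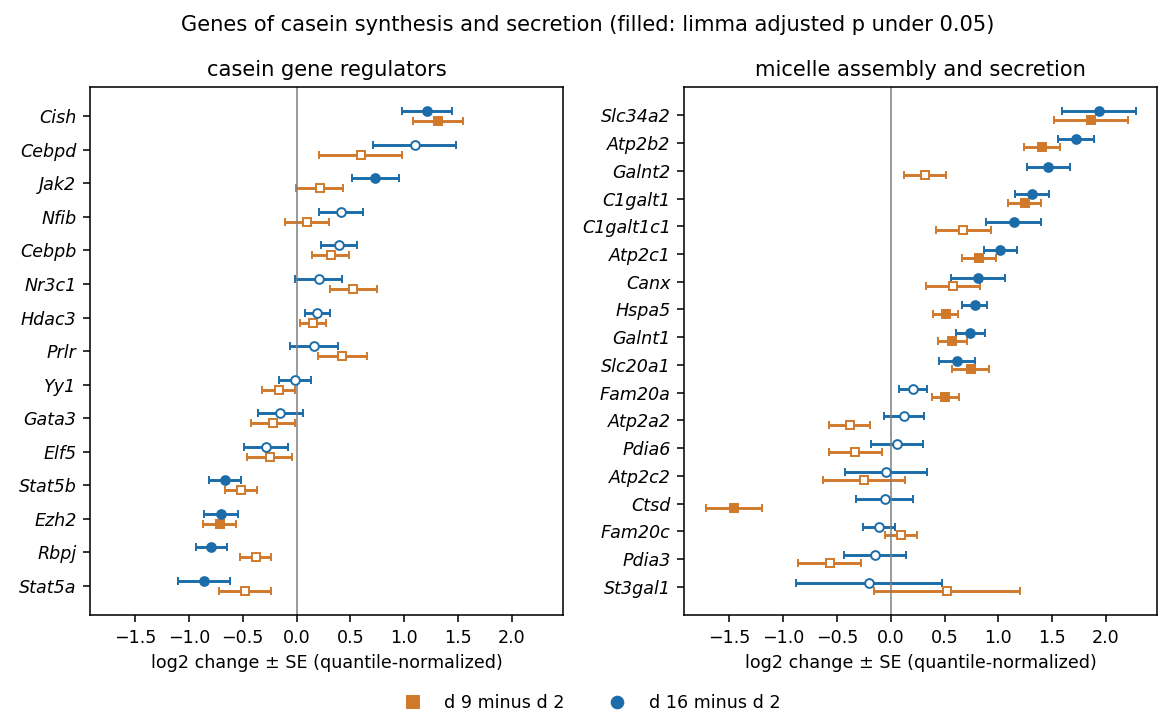
Log2 change ± SE after quantile normalization from d 2 to d 9 (squares) and d 16 (circles) for the detected genes of both lists, filled where the limma adjusted p was under 0.05. Of the 18 micelle and secretion genes 10 were higher on d 16, led by Slc34a2 at 1.93 and Atp2b2 at 1.72, and of the 15 regulators 4 were lower. The plotted change of Cish is the fitted one, with d 2 values not well above background.

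Of 25 other probes within 500 kb of the caseins, 4 were detected in whey. Between d 2 and d 9 1 of them was called, between d 2 and d 16 3, and between d 9 and d 16 none, with the shares over all probes given above. In the last comparison 1 passed unadjusted in limma, for which all probes were not counted. In the unadjusted Tukey-Kramer test 2 passed, as did 2050 of all 16845 probes. With the dams as a block the 4 calls over the 3 comparisons became 2. Muc10, a salivary mucin gene that RefSeq lists as Oprpn, moved in the same direction as Csn1s2b. Its processed signal was 2.10, 2.77 and 6.55 on d 2, 23.4, 34.4 and 74.8 on d 9, and 75, 217 and 90.8 on d 16. No d 2 value was well above background and all later values were. After quantile normalization Muc10 was at least 6.38-fold higher on d 9 (limma adjusted p = 0.00595) than on d 2. On d 16 it was at least 24.1-fold higher than on d 2 (limma adjusted p = 0.000462). The log2 changes were 2.67 and 4.59 on that scale, 2.41 and 4.39 with 75th percentile scaling, and 3.84 and 4.94 with spike-in scaling. Muc10 passed the filter on dim probes through the later days alone, so these calls are no separate support for the difference. The same holds for Sult1d1, a sulfotransferase called on d 16, which was well above background on 0 d 2, 2 d 9 and 1 d 16 arrays and is given no fold. RGD1562394 is annotated as similar to ribosomal protein L30 and may share signal with its parent gene. It was not called, at 0.12 ± 0.10 log2 units (SE; limma adjusted p = 0.398) from d 2 to d 16. The probe ENSRNOT00000039319, annotated as similar to peptidylprolyl isomerase D and open to the same sharing, fell by 0.55 to d 16 (limma adjusted p = 0.0389) after quantile normalization and turned positive under 2 of the 5 scalings.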

How the data were processed

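Total RNA, 100 ng an array, was amplified with a low-input linear protocol, labelled with Cy3 and put on 4x44K whole rat genome arrays with 60-base probes. The deposited values are 1-colour spot intensities: per the file headers, the authors read them with Agilent Feature Extraction 9.5.3.1, which subtracted the local background, and did not normalize them between arrays. The files also hold a flag for spots well above background. A table of log2 values that the authors had quantile normalized has 10 columns whose names match no sample label and was not used here.

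Processed signals of 43379 non-control spots were log2 transformed and quantile normalized over all 10 arrays (the study's methods name quantile normalization), and spots flagged as outliers were left out. The 16849 probes well above background with a processed signal over 20 on at least 1 whey array were tested with limma 3.58.1 in R 4.3.3 over the 9 whey arrays without a block, and p-values were adjusted by the Benjamini-Hochberg method at 0.05. Bounds ("at least") are on the quantile-normalized scale, and other scalings can give lower values. On each array of the dim group they take whichever is higher, the signal of the probe itself or that of the dimmest probe well above background. The fit was also run on simulated arrays with independent noise and few changed probes, a simpler setting than these arrays, and its outcome is not used as support here. Ratios used the processed signal and figures Python 3.11.15 with matplotlib 3.10.9. Arrays carry no read depth, and their number limits the precision.

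The same dams were sampled on each day, so the dam number of the labels pairs the arrays. Same-dam deviations from the day means correlated at -0.02 to 0.22. Each array is a separate milk sample. All members were named, with at most 6 called genes a list by size of change, all detected named neighbours, and the 5 genes most like Csn1s2b and RGD1310384. The members and lists were chosen with earlier results of these data known. The alternatives covered scaling, background, filters, blocks, the methods' Tukey-Kramer test, array weights and leaving out each array, and outlier spots left out before normalization, an alternative chosen after seeing the data.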

Additional observations from a re-analysis of the deposited data

How the results depend on the processing

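Csn1s2b and RGD1310384 kept their direction against d 2 in every alternative run, at 3.87 to 5.56 and -4.23 to -2.51 for d 9 and at 6.36 to 7.05 and -4.99 to -3.85 for d 16. Csn2 passed from d 2 to d 16 in 22 of 24 alternatives. Scaling to the spike-in probes turned Csn1s2a to 0.92 and Csn1s1 to 0.93 from d 2 to d 9, and Csn3 to -0.58, Csn1s2a to -0.21, Csn2 to -0.10 and Csn1s1 to -0.40 from d 9 to d 16. With no normalization Csn1s2a was at 0.62 and Csn1s1 at 0.63 from d 2 to d 9, and Csn3 at -0.13 from d 9 to d 16. The median of all probes shifted on these scales from d 2 to d 9 by 1.54 and 1.23. Csn1s1 from d 2 to d 16 was -0.017 with the 75th percentile, and Csn1s2a from d 2 to d 9 was 0.043 with normexp, and -0.38 to 0.073 when 1 array was left out, the latter without d 9 whey of dam 3. The cause of the other reversals was not tested. Members called were 4, 2 and 0 in the 3 comparisons with spike-in scaling, and 2 and 0 in those of d 16 with no normalization, and 0 between d 9 and d 16 with the Tukey-Kramer test after adjustment. Leaving out 1 array gave 2 to 4 members called between d 2 and d 9, 4 without d 9 whey of dam 3. Over the 3 comparisons 8 regulator calls became 1 with no normalization, 4 with the adjusted Tukey-Kramer test, and 4 to 9 when 1 array was left out (4 without d 2 whey of dam 2, 5 without d 16 whey of dam 2 or dam 3). The 20 calls of micelle genes became 13 with spike-in scaling, 5 with none, 11 with the adjusted Tukey-Kramer test, and 13 to 17 without 1 array (13 without d 2 whey of dam 3 or d 9 whey of dam 2). The 4 calls beside the caseins became 2 with probes well above background in all whey, 7 with the unadjusted Tukey-Kramer test, 7 with array weights, and 2 to 5 without 1 array (2 without d 2, d 9 or d 16 whey of dam 2). With the dam as a replicate block these neighbour calls were 2, the adjusted p of Csn3 from d 2 to d 16 was 0.0712, and 0 ratio pairs passed, against 1 unpaired. The block changed no other call of a tested casein. Ratio pairs ran from 0 to 5 when 1 array was left out.

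Over all probes, the 2969, 4801 and 239 calls became 7610, 742 and 192 with spike-in scaling and 1298, 796 and 63 with none. Of the calls from d 2 to d 9 1897 were higher, against 7540 and 1247 on those scales. From d 2 to d 16 2704 were higher, against 557 of 742 and 638 of 796, and from d 9 to d 16 95, against 4 of 192 and 6 of 63. With slide as a fixed block 498 were called from d 2 to d 9, 235 of them higher. The adjusted Tukey-Kramer test gave 1297, 2687 and 0 calls and the unadjusted one 4052, 5262 and 2050. Array weights gave 4776, 7162 and 994. Between d 9 and d 16 normexp gave 842 calls, the random slide block 676, the dam block 117, no filter 131, the strict background filter 529 and a minimum signal of 100 gave 618. Leaving out 1 array gave 1266 to 2718, 2744 to 4886 and 22 to 259 calls.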
